A study of Mus musculus with 7 samples.

Results

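The genes described here are 10 antiviral interferon-stimulated genes, chosen by name: Isg15, Ifit1, Ifit2, Ifit3, Oas1a, Oasl2, Mx1, Mx2, Rsad2 and Usp18. All 10 were found by gene ID among the 18036 genes listed in any library, all 10 had reads in every library, and all 10 were among the 12061 genes tested (at least 1 RPKM in at least 2 libraries). RNA came from epithelium scraped off the colon of female hCYP1A mice on C57BL/6, in which human CYP1A genes replace the mouse ones, aged 6 weeks. The control mice were untreated. The DSS mice drank 1.5% dextran sulfate sodium, a colitis-inducing polymer, for 5 days. The PhIP/DSS mice first received 2 doses of 100 mg/kg PhIP, a carcinogen formed in cooked meat, 4 days apart, and about a week later DSS as above. Tissue was taken 1, 3 or 7 days after DSS ended, graded in the labels as colitis on days 1 and 3 and partial colitis on day 7, and the RNA of 3 mice was pooled into 1 library per condition, 7 libraries in all, so that no condition had a replicate library. The comparisons address how these genes stood after DSS and whether prior PhIP went with a difference.

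Interferon-stimulated genes are the working end of the antiviral response. Type I interferons (alpha and beta) and type III interferons (lambda), the latter acting mainly on epithelia, bind separate receptors and activate the same transcription factor complex, ISGF3. ISGF3 binds a promoter element called ISRE, whereas interferon gamma acts mainly on an element called GAS. The proteins made then bind foreign RNA (IFIT), make the oligoadenylate signal that activates RNase L (OAS), block viral particles (MX), produce a chain-terminating nucleotide (RSAD2, viperin) or tag proteins (ISG15).

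Promoters are shown because ISRE is the known target of ISGF3 and the choice by name did not use sequence. RefSeq promoter windows of 300 bases on GRCm38.p6 (250 before and 50 after the start) were held for 7 of the 10 genes, and the motif GAAANNGAAA, searched on both strands with overlapping matches allowed, was present in 5 of them, Isg15, Ifit1, Ifit3, Oas1a and Rsad2, against 3.99% of the 27025 genes and 3.44% of the 32851 windows in the table. Ifit2 (8 windows in all were held for the 7 genes, 2 of them for Ifit2) and Oasl2 held no match, and no window was used for Usp18, Mx1 and Mx2. The motif TTCNNNGAA, the GAS core, was found in 2 of the 7, Ifit2 and Oas1a, against 9.55% of all genes and 8.30% of all windows. Each sequence below is 60 bases of the gene's own strand, 5′ to 3′, upstream of the start, with every match to GAAANNGAAA or its complement in capitals. Ifit3b and Oas1g, the closest copies of Ifit3 and Oas1a, are printed beside them.
Isg15, chr4:156200852-156200911, minus strand, bases -93 to -34: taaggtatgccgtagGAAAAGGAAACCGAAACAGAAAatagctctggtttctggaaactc
Ifit1, chr19:34640770-34640829, plus strand, bases -119 to -60: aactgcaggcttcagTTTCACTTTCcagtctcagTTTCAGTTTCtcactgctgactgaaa
Rsad2, chr12:26456528-26456587, minus strand, bases -135 to -76: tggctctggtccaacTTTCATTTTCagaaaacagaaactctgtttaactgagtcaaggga
Ifit3, chr19:34583358-34583417, plus strand, bases -171 to -112: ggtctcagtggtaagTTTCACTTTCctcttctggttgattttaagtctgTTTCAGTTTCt
Ifit3b, chr19:34607754-34607813, plus strand, bases -203 to -144: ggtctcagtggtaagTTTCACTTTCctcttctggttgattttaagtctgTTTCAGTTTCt
Oas1a, chr5:120907526-120907585, minus strand, bases -60 to -1: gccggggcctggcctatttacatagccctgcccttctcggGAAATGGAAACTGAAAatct
Oas1g, chr5:120887614-120887673, minus strand, bases -60 to -1: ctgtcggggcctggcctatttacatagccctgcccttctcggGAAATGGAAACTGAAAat

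Libraries held between 7.66 M and 8.78 M uniquely mapped reads (M, mega). Levels are the authors' RPKM (unique reads scaled to gene length and library total), which can be compared between genes. Epithelial markers were abundant in every library, with Epcam between 718 and 1018 RPKM and Krt8 between 3096 and 3865. The PhIP/DSS day 1 library stood apart by fat tissue transcripts, whose 5 markers summed to 126 RPKM against 1.80 to 17.3 in the other libraries. Leukocyte markers (4 genes) summed to 118 RPKM in that library, 69.3 in DSS day 3 and between 19.0 and 53.3 elsewhere. In such tissue RNA, a change in the share of cells that express a gene and a change of RNA per cell cannot be told apart.

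Isg15, the ubiquitin-like modifier (gene 100038882; GRCm38.p6 chromosome 4, 156199424 to 156200818), was among the more abundant members. Its level was 23.0 RPKM in the control, 32.6, 35.5 and 37.2 in DSS on days 1, 3 and 7, and 64.5, 50.6 and 92.9 in PhIP/DSS on the same days. The 3 PhIP/DSS libraries all lay above the 3 DSS libraries, and the control lay lowest. Usp18, the protease that removes ISG15 and dampens the type I receptor (gene 24110; chromosome 6, positions 121245906-121270917), was at 4.55 RPKM in the control, at 4.70, 8.84 and 9.33 in DSS and at 13.6, 12.1 and 14.4 in PhIP/DSS. For Usp18, DSS day 1 did not differ from the control beyond counting error, with a ratio of reads per library total of 1.03 (exact 95% interval 0.727 to 1.47), while PhIP/DSS day 1 was 3.00 times the control (interval 2.25 to 4.05). These intervals, and all others given for a ratio of 2 libraries, cover counting error only.

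The Ifit genes, whose proteins bind RNA that lacks the marks of host messages, lie in a cluster on chromosome 19 that runs from Ifit2 (34550550 to 34576534) over Ifit3 (34583119 to 34588982) to Ifit1 (34640889 to 34650009). Ifit1 was at 17.5 RPKM in the control, 25.3, 23.5 and 26.3 in DSS and 36.5, 34.6 and 52.2 in PhIP/DSS on days 1, 3 and 7. Ifit2 was at 3.93 RPKM in the control, 11.7, 8.25 and 15.3 in DSS and 15.6, 14.3 and 27.5 in PhIP/DSS. Of the 10 genes Ifit2 had the largest ratio to the control in every treated library but PhIP/DSS day 1, where Mx2 had it. In DSS on days 1, 3 and 7 the ratio of Ifit2 stood at 2.98 (2.42 to 3.69), 2.10 (1.69 to 2.62) and 3.90 (3.19 to 4.80), and in PhIP/DSS day 7 it stood at 6.98 (5.76 to 8.53). Its arms overlapped, since DSS day 7 lay above PhIP/DSS day 3. Ifit3 was low, at 1.57 RPKM in the control, 2.47, 2.56 and 2.30 in DSS and 3.69, 3.27 and 3.81 in PhIP/DSS, from 24 to 64 reads a library. None of the 6 steps between neighbours in the order of its levels exceeded counting error.

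Ifit3 has a close copy in the cluster. Of the 50-base windows of its longest GENCODE vM21 transcript, 51.2% recur exactly in transcripts of Ifit3b, and reads covered between 37.0% and 48.75% of its length per the authors' tables. The read length is not given, so the window size is only a guide. Ifit3b itself went from 1.69 RPKM in the control to 3.70, 1.87 and 4.03 in DSS and 4.07, 4.54 and 7.51 in PhIP/DSS. Another neighbour, Ifit1bl1, whose annotated span includes Ifit1, was the most abundant gene of the cluster. It was at 92.1 RPKM in the control, 102, 84.0 and 127 in DSS and 77.7, 165 and 287 in PhIP/DSS. Unlike Ifit1, it was lower in PhIP/DSS than in DSS on day 1.

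The oligoadenylate synthetase genes Oasl2 and Oas1a had fitted log2 differences from the control of 0.56 and 0.71. Oasl2, an OAS-like protein gene (gene 23962; chromosome 5, positions 114896926-114912245) and the most abundant member in every library, was at 54.7 RPKM in the control, 66.9, 67.0 and 68.5 in DSS and 72.6, 85.3 and 133 in PhIP/DSS. The 3 DSS libraries differed from each other by no more than counting error, and the PhIP/DSS levels increased with the day. Oas1a (gene 246730; chromosome 5, positions 120896256-120907544) was at 13.95 RPKM in the control, 18.9, 17.8 and 21.2 in DSS and 23.3, 27.4 and 29.6 in PhIP/DSS. Its copy Oas1g shares 57.6% of the 50-base windows of Oas1a, and reads covered between 46.6% and 52.1% of the length of Oas1a, and the part of the copy in its counts was not tested. Oas1g was at 6.48 RPKM in the control, 7.59, 8.28 and 9.24 in DSS and 8.29, 10.1 and 12.2 in PhIP/DSS.

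Rsad2, the viperin gene (gene 58185; chromosome 12, positions 26442743-26456452), departed from the others. It was at 5.72 RPKM in the control, 6.20, 5.33 and 8.42 in DSS and 14.9, 6.43 and 12.9 in PhIP/DSS. It was the 1 member whose control was not the lowest library, and the 1 member highest in PhIP/DSS day 1. On day 3 its ratio to the control was 0.931 in DSS (0.749 to 1.16) and 1.12 in PhIP/DSS (0.911 to 1.39), so neither exceeded counting error. Cmpk2, a nucleotide kinase gene that is its neighbour, went from 5.48 RPKM in the control to 6.59, 4.68 and 8.17 in DSS and 8.13, 10.1 and 14.8 in PhIP/DSS, with its highest level on day 7.

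Mx1 and Mx2 belong to a family of dynamin-like GTPases, and RefSeq lists both as transcribed pseudogenes in this C57BL/6 assembly. Mx1 (gene 17857; chromosome 16, positions 97447035-97462906) was at 1.46 RPKM in the control, 2.49, 2.26 and 3.58 in DSS and 3.71, 4.72 and 5.33 in PhIP/DSS. Mx2 (gene 17858; chromosome 16, positions 97536081-97560901) was the lowest member, at 0.376 RPKM in the control (7 reads), 0.472, 0.750 and 0.549 in DSS and 1.64, 1.17 and 1.86 in PhIP/DSS. It passed the 1 RPKM filter through the PhIP/DSS libraries alone. Mx2 was in the fit, but the median and the unadjusted count of the arm difference leave it out. Of 60 steps between neighbours in the order of levels over the 10 genes, 37 did not exceed counting error.

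**Figure D1:**
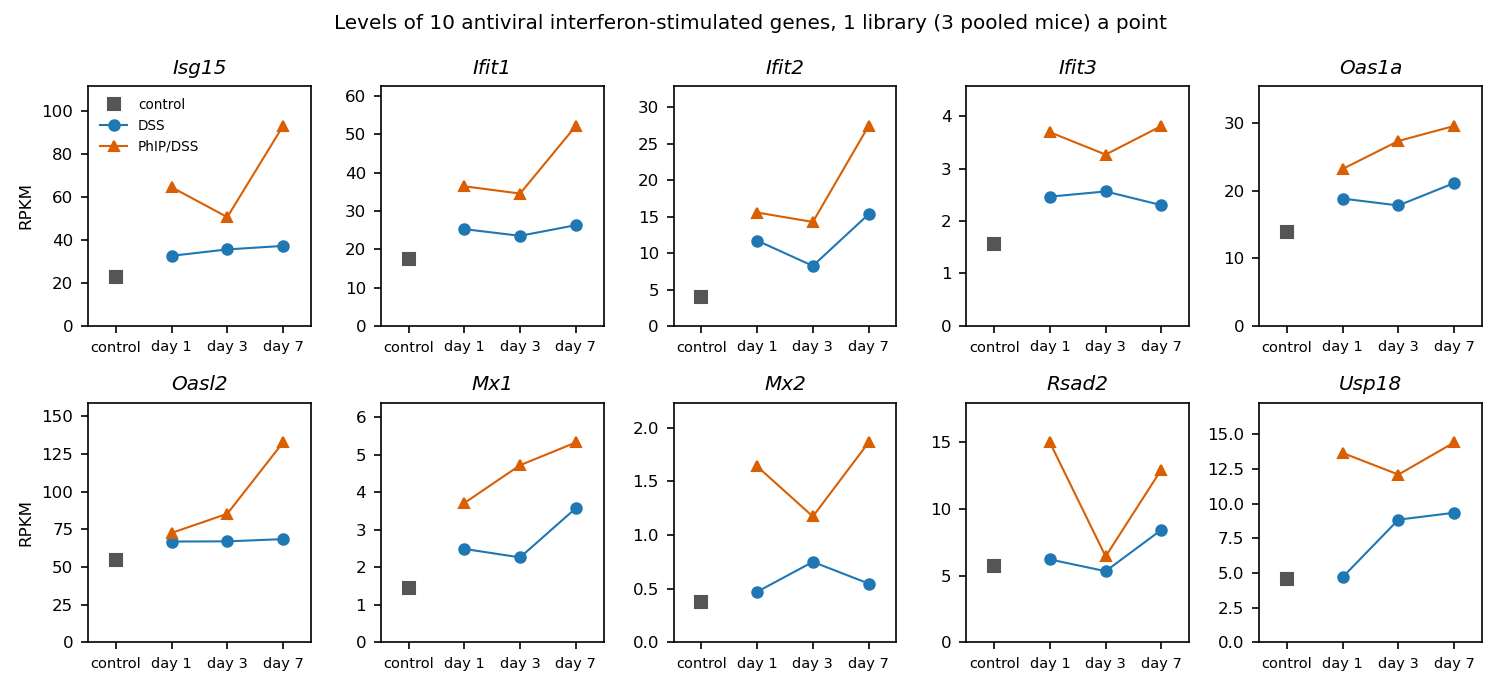
RPKM of each of the 10 genes (vertical axes, linear from 0) in the control library (grey square), the DSS libraries (blue circles) and the PhIP/DSS libraries (orange triangles) by day after DSS, 1 pooled library a point with no error bar. The orange points lie above the blue ones on each day for all 10 genes, and the control is lowest for all but Rsad2.

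Against the control, all 10 genes had a positive fitted difference, with a median log2 fold change of 1.02 over all treated days (range 0.56 to 1.89), while the median over all 12061 genes was 0.00 (0.00494 unrounded). Without Mx2, which passed the filter through PhIP/DSS alone, the median of the other 9 was 0.93. The size was largest for Ifit2 at 1.89 (SE 0.18, edgeR adjusted p = 0.0654), followed by Mx2 at 1.35 (SE 0.59), Mx1 at 1.28 (SE 0.27), Usp18 at 1.15 (SE 0.37) and Isg15 at 1.10 (SE 0.25, adjusted p = 0.112). It was smallest for Rsad2 at 0.58 (SE 0.29) and Oasl2 at 0.56 (SE 0.24). None of the 10 passed edgeR's quasi-likelihood test at an adjusted p under 0.05. Of all genes, 0.0912% passed upward, 11 genes, with 10 more downward. At an unadjusted p under 0.05, 7 of the 10 were higher and none lower, against 12.8% of all genes higher. DESeq2 called Ifit1, Ifit2 and Isg15, where it called 6.95% of all genes up or down, and limma on log2(RPKM + 0.1) called Ifit2, with 0.547% of all genes. With 1 library per condition, the spread behind these tests is how far the arm difference departs from a constant over the days (2 residual degrees of freedom), and the 1 control library enters every value.

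By day, the median fitted log2 difference from the control was 0.90 on day 1, 0.91 on day 3 and 1.25 on day 7. Without Mx2 these medians were 0.86, 0.91 and 1.12. With edgeR, 0 of the 10 passed on any day, as did 0% of all genes upward on day 1, 0% on day 3 and 0% on day 7. Unadjusted p-values under 0.05 with a higher level were reached by 6 of 10 on day 1 (16.4% of all genes), 7 on day 3 (10.3%) and 9 on day 7 (9.22%). The exception on day 7 was Mx2, at 1.47 (SE 0.65, unadjusted p = 0.0759). Ifit2 was at 1.78 (SE 0.19), 1.49 (SE 0.19) and 2.41 (SE 0.20) on days 1, 3 and 7, with adjusted p of 0.0710, 0.129 and 0.0661. DESeq2 called Ifit2 on each day, and Ifit1 and Isg15 also on day 7, while it called 10.3%, 3.63% and 3.81% of all genes on days 1, 3 and 7. Its 1 call among the 10 on day 1 is no more than that share. Between day 7 and day 1 all 10 differences were positive in this fit, with a median of 0.37, but Ifit3 (0.01) turned negative with library totals alone and with limma, and Mx2 and Rsad2 did with 1 library left out, to -0.0803 and -0.259. Here 1 gene, Ifit2 at 0.64 (SE 0.14), reached an unadjusted p under 0.05 (12.3% of all genes upward). By edgeR, 0 passed after adjustment, again against 0% of all genes upward, and DESeq2 called 0 of the 10.

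These calls turned on the day 1 libraries. Without DSS day 1, edgeR called 7 of the 10 over all treated days, and 5, 6 and 8 on days 1, 3 and 7, while it called 29.1% of all genes, up or down, over all treated days and 35.5%, 17.8% and 15.7% by day. Without PhIP/DSS day 1, the library with fat transcripts, it called 7 of the 10, with 3, 6 and 8 by day, against 20.2% of all genes and 12.4%, 18.8% and 16.7% by day. Each of the other 4 treated libraries, left out in turn, gave 0 called members.

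Library by library, the 6 comparisons share the control, so each is given by itself. At least 1.5-fold above the control were 3 of 10 genes in DSS day 1 (14.7% of tested genes with a read in either library), 6 in DSS day 3 (13.9%) and 6 in DSS day 7 (12.9%). In PhIP/DSS they were 9 on day 1 (22.9%), 9 on day 3 (10.9%) and 10 on day 7 (12.8%). Without Mx2, which the filter let in through PhIP/DSS, these 3 counts were 8, 8 and 9 of 9. The gene below 1.5-fold in PhIP/DSS was Oasl2 on day 1, at 1.33 (1.24 to 1.42), and Rsad2 on day 3. The median ratio to the control over the 10 genes was 1.39, 1.55 and 1.51 in DSS and 2.58, 2.14 and 3.08 in PhIP/DSS, where the medians over all genes lay between 0.960 and 1.01. The control lay below all 6 treated libraries for 9 of 10 genes (8 of 9 without Mx2), as it did for 25.4% of all genes tested.

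The comparison of PhIP/DSS with DSS addressed whether PhIP given before DSS went with another level of these genes. All 10 were higher in PhIP/DSS on each of the 3 days, an order that 14.6% of all genes showed. For 8 of the 10 all 3 PhIP/DSS libraries lay above all 3 DSS libraries, against 3.38% of all genes, and the exceptions were Ifit2 and Rsad2. Without Mx2, which the filter let in through PhIP/DSS, these were 9 of 9 and 7 of 9. The highest library was PhIP/DSS day 7 for 9 of 10 genes (8 of 9 without Mx2), and for 11.7% of all genes. The fitted difference over the days of the 9 genes other than Mx2 had a median of 0.67 on the log2 scale (range 0.45 to 0.92), against -0.01 over all genes. It was 0.92 for Isg15 (SE 0.17, unadjusted p = 0.00372), 0.84 for Usp18 (SE 0.25), 0.67 for Ifit1 (SE 0.12, unadjusted p = 0.00303), 0.66 for Ifit2 (SE 0.12, unadjusted p = 0.00271) and 0.45 for Oas1a (SE 0.10).

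None of these differences passed correction over all genes. The edgeR adjusted p was 0.998 for each of the 10, and 0% of all genes passed upward, with a smallest adjusted p of 0.121 over all genes. Leaving Mx2 aside, 8 of 9 were higher at an unadjusted p under 0.05, Ifit3 at 0.0556 being the other, while 2.01% of all genes were. DESeq2 and limma also called 0 of the 10. Without DSS day 1 edgeR called Ifit1 and Ifit2, and without PhIP/DSS day 1 also Isg15, where 2.34% and 2.69% of all genes were called up or down, with adjusted p from 0.0105 upward over all settings for Ifit2. The adjusted p of Isg15 ranged from 0.0389 to 1 over those settings.

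**Figure D2:**
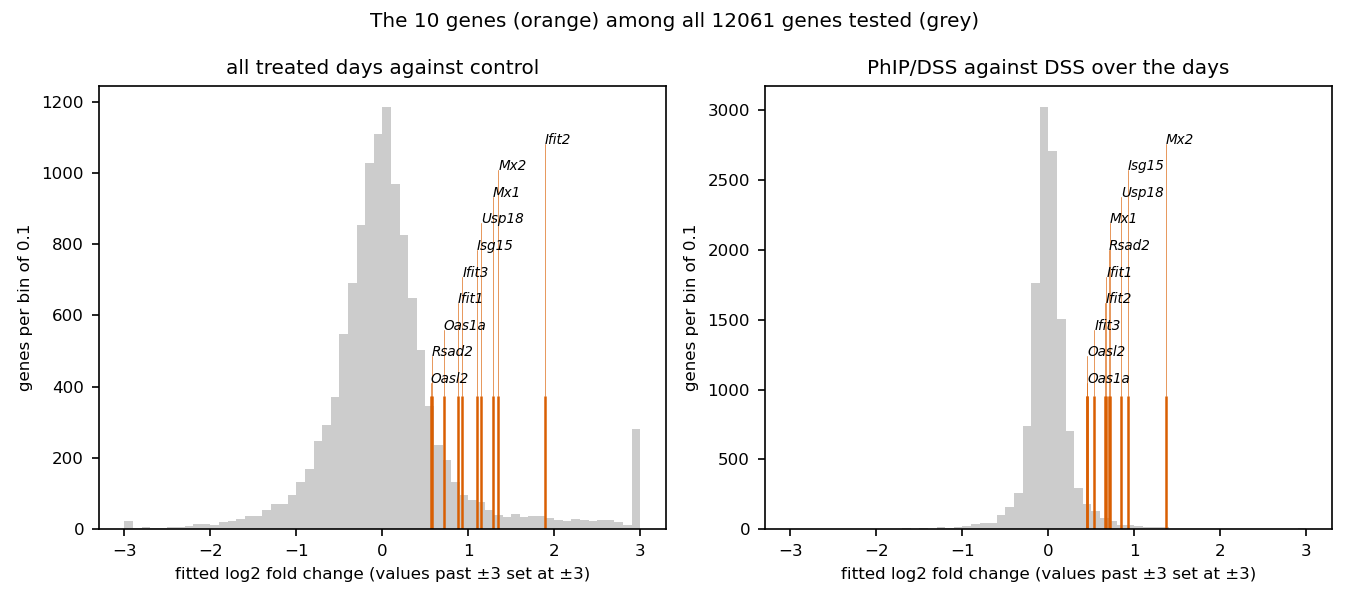
Fitted log2 fold changes of all genes tested (grey histograms, genes per bin of 0.1) and of the 10 genes (orange lines, named) for all treated days against the control and for PhIP/DSS against DSS. The 10 genes lie between 0.56 and 1.89 in the first and between 0.45 and 1.37 in the second, where the top value is Mx2, all to the right of the medians of all genes, and values past 3 in size are drawn at 3. Mx2 passed the filter through the PhIP/DSS libraries alone.

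The size of the arm difference varied with the day and the gene. The counts here include Mx2, which is past 1.5-fold on each day. On day 1 the ratio of PhIP/DSS to DSS was at least 1.5 for 4 of 10 genes (10.6% of all genes), led by Mx2 at 3.48 (1.68 to 7.89), Usp18 at 2.90 (2.21 to 3.84), Rsad2 at 2.41 (2.04 to 2.85) and Isg15 at 1.98 (1.67 to 2.34). Oasl2 was nearly level on that day, at 1.09 (1.02 to 1.16). On day 3 the ratio reached 1.5 for 4 genes (5.56% of all genes), of which Mx1 had the largest at 2.08 (1.53 to 2.86) and Ifit2 followed at 1.73 (1.49 to 2.01). The intervals of Ifit3, Mx2 and Rsad2 held 1 on day 3, so that a difference was not detectable at this depth. On day 7 it reached 1.5 for 8 genes (5.67% of all genes), with Mx2 at 3.40 (1.70 to 7.36), Isg15 at 2.50 (2.14 to 2.92), Ifit1 at 1.98 (1.79 to 2.20) and Oasl2 at 1.94 (1.83 to 2.05). Usp18 and Rsad2 were thus farthest apart between the arms on day 1, and Oasl2 and Ifit1 on day 7. How the arm difference changes with the day was not tested, since each arm and day had 1 library.

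**Figure D3:**
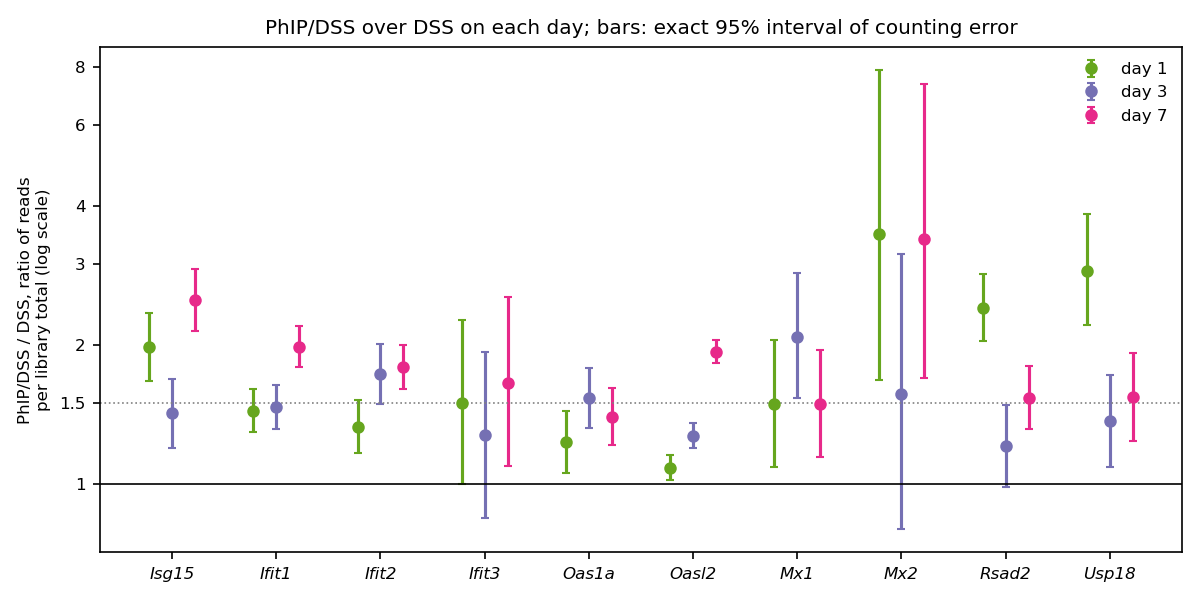
Ratio of reads per library total, PhIP/DSS over DSS, for each gene on days 1 (green), 3 (purple) and 7 (pink), on a log axis, with exact 95% intervals that cover counting error only. The line marks equal levels and the dotted line 1.5-fold. All 30 points lie above 1, from 1.09 for Oasl2 on day 1 to 3.48 for Mx2 on day 1.

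The ligands that could drive these genes were hardly read, while their receptors were. Of 18 interferon ligand and receptor genes, 7 had no read in any library, among them Ifnl3. Ifnb1, interferon beta, had 1 read in PhIP/DSS day 1 and 0 in the other libraries, and Ifnl2 1 read in DSS day 1 alone. A library with 0 reads may still hold up to 3 by counting error, so a presence at that level was not detectable. Ifng, interferon gamma, had 0 reads in the control, 4, 7 and 7 in DSS and 14, 1 and 1 in PhIP/DSS on days 1, 3 and 7. On days 3 and 7 these reads were too few to order the arms. The ratio of the arms was 0.149 (0.00330 to 1.16) and 0.140 (0.00312 to 1.09) on those days, within counting error. The receptor genes Ifnar1 (9.65 to 13.4 RPKM) and Ifnlr1 (6.74 to 9.05 RPKM) had fitted differences from the control of 0.04 (SE 0.19) and 0.04 (SE 0.14), and Ifnar2 ranged from 1.54 to 9.94 RPKM, highest in PhIP/DSS day 1, and fitted at 1.54 (SE 1.00). Il10rb and Ifngr2, receptor chains for interferon lambda and gamma, fitted at 0.34 (SE 0.14) and 0.25 (SE 0.11). None of the 6 members of the list that passed the filter was called against the control by edgeR, and none had an unadjusted p under 0.05.

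Among 15 genes of interferon signalling, 11 were higher than the control over all treated days (median log2 0.42), with 0 called, 8 higher at an unadjusted p under 0.05 and 1 lower (Irf2, a repressor of interferon genes, at -0.43). Of all genes tested, 50.5% were higher and 12.8% were higher at that p. Stat2 and Irf9, which encode parts of ISGF3, fitted at 0.74 (SE 0.12) and 0.42 (SE 0.12). Irf7, the factor that amplifies interferon production, was at 75.4 RPKM in the control, 73.0, 71.9 and 114 in DSS and 98.0, 102 and 166 in PhIP/DSS. Its arm difference was 0.47 (SE 0.07, unadjusted p = 0.00131). The feedback inhibitors Socs1 and Socs3 fitted at 1.76 (SE 0.63) and 3.79 (SE 1.27) against the control, and Socs3 was highest in PhIP/DSS day 1 at 89.7 RPKM.

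Of 13 nucleic acid sensor and adaptor genes that passed the filter, 11 were higher than the control (median 0.22), beside 50.5% of all genes. At an unadjusted p under 0.05 by edgeR, 2 of the 13 were higher, beside 12.8% of all genes. After adjustment 1 rose past the threshold, beside 0.0912% of all genes upward. This was Zbp1, a sensor of Z-form nucleic acid and of cell death signalling, at 13.7 RPKM in the control, 37.1, 34.6 and 56.7 in DSS and 51.0, 59.95 and 87.5 in PhIP/DSS (log2 1.94, SE 0.15, edgeR adjusted p = 0.0422). That call was lost when either day 3 or either day 7 library was left out, at log2 1.89 to 1.98. It was also lost in edgeR with no day term (adjusted p = 0.114) and with no PhIP term (adjusted p = 0.0630). With limma on log2(RPKM + 1) it was lost too (adjusted p = 0.0507). The remaining settings kept it, DESeq2 at an adjusted p of 8.67e-15. The RNA sensors Ddx58 (RIG-I) and Ifih1 (MDA5) fitted at 0.22 (SE 0.15) and 0.12 (SE 0.12), and the DNA sensing pair Sting1 and Cgas at 0.63 (SE 0.18) and 0.45 (SE 0.32). Of the other list of 40 antiviral effectors, 37 were higher than the control (median 0.54), 17 of them at an unadjusted p under 0.05, and 0 were called, beside 50.5% and 12.8% of all genes. Between the arms 35 of the 40 were higher in PhIP/DSS over the days (median 0.40), and 21 on each of the 3 days, beside 48.2% and 14.6% of all genes. The membrane proteins Ifitm1 and Ifitm3, which block viral entry, had the largest differences from the control at 4.54 (SE 2.11) and 2.27 (SE 0.62), and Slfn5 followed at 1.65 (SE 0.35). Oasl1 and Cmpk2 had arm differences of 0.45 (SE 0.08) and 0.74 (SE 0.18), beside 0.46 for Oasl2 and 0.71 for Rsad2.

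The genes of the enzymes that attach ISG15 were also measured. Uba7, the activating enzyme gene, fitted at 0.26 (SE 0.12) and Ube2l6, the conjugating enzyme gene, at 0.71 (SE 0.31) against the control, and Herc6, the mouse ligase gene, was at 2.97 RPKM in the control, 2.08, 3.00 and 3.51 in DSS and 3.11, 3.24 and 7.08 in PhIP/DSS. None was called by edgeR. Of 9 genes induced mainly by interferon gamma that passed the filter all were higher than the control (median 1.46, 0 called, 6 at an unadjusted p under 0.05). The shares over all genes tested were 50.5% higher and 12.8% higher at that p. Between the arms all 9 were also higher in PhIP/DSS over the days (median 0.67, 0 called), beside 48.2% of all genes. Of these, 6 were higher at an unadjusted p under 0.05 by edgeR, beside 2.01% of all genes. On each of the 3 days 6 of the 9 were higher, beside 14.6% of all genes. The chemokine genes Cxcl9 and Cxcl10 fitted at 4.32 (SE 1.12) and 2.78 (SE 1.48). Ido1, a tryptophan-degrading enzyme gene, fitted at 2.32 (SE 0.31) against the control and 0.91 (SE 0.19, unadjusted p = 0.00584) between the arms.

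Over the 7 libraries the 10 genes followed 1 another closely, as a description. Pearson's r of each with the mean of the other 9, on log2(RPKM + 1) after centring and scaling, ran from 0.989 for Ifit1 and 0.988 for Isg15 down to 0.869 for Oasl2 and 0.746 for Rsad2. The genes outside the list with the most similar profile were Irgm1 (r = 0.985), Oasl1 (0.983), Iigp1 (0.983), Gm12250 (0.982), Psme2 (0.982), Tap1 (0.979), Ifi47 (0.978), Frg1 (0.974), Wbp4 (0.970) and Oas2 (0.963). Irgm1, an interferon-inducible GTPase gene, was at 24.9 RPKM in the control, 33.2, 34.2 and 39.5 in DSS and 44.6, 47.9 and 60.6 in PhIP/DSS. It too was higher in PhIP/DSS on each day. Irgm1 and Iigp1 are both in the above list of genes induced mainly by interferon gamma. Tap1 and Psme2, of antigen processing, went from 15.2 and 87.1 RPKM in the control to 42.5 and 157 in PhIP/DSS day 7. The 7 points share their libraries and depth, and with so few of them many genes reach a high r.

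Markers of different blood cells stood in different orders between the arms, where the 10 genes were higher in PhIP/DSS on each day. The 4 general leukocyte markers summed to 19.0 RPKM in the control, 21.2, 69.3 and 53.3 in DSS and 118, 21.4 and 52.7 in PhIP/DSS, so PhIP/DSS was below DSS on day 3 and close to it on day 7. The 7 neutrophil markers listed summed to 2.82 RPKM in the control, 35.4, 1146 and 457 in DSS and 809, 31.0 and 68.8 in PhIP/DSS. The 11 macrophage and monocyte markers were at 51.4, then 108, 299 and 251 in DSS and 520, 101 and 187 in PhIP/DSS. All 7 neutrophil markers were lower in PhIP/DSS on days 3 and 7. Of the macrophage and monocyte markers, 2 of 11 were higher in PhIP/DSS on day 3 and 4 of 11 on day 7, and the complement gene C1qa was among them on both days (8.34 against 7.89 RPKM and 18.6 against 10.5).

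Summed lymphocyte markers were higher in PhIP/DSS on each day, like the 10 genes, though B and plasma cell markers were nearly level on day 3. The 9 T and NK cell markers listed summed to 9.97 RPKM in the control, 7.56, 6.62 and 8.56 in DSS and 16.3, 7.68 and 13.6 in PhIP/DSS, with 9, 5 and 5 of 9 genes higher in PhIP/DSS on days 1, 3 and 7. The 6 B and plasma cell markers summed to 25.8 RPKM in the control, 16.4, 25.05 and 44.2 in DSS and 42.7, 25.08 and 87.7 in PhIP/DSS, with 6, 1 and 6 of 6 genes higher.

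Markers of other cells gave further values. Siglech, the defining gene of plasmacytoid dendritic cells, which make much interferon, was at 0.327 RPKM in the control, 0.191, 0.190 and 0.404 in DSS and 0.440, 0.297 and 0.795 in PhIP/DSS (4 to 16 reads a library). It was higher in PhIP/DSS on each day, but within counting error. The ratios were 2.30 (0.642 to 10.2), 1.56 (0.371 to 7.53) and 1.97 (0.794 to 5.30). Of the 8 genes listed for these cells, 5, 7 and 6 were higher in PhIP/DSS on days 1, 3 and 7. Of that list, Bst2 is itself interferon-induced and Klk1, at 184 to 873 RPKM, decides the sum, which was 902 RPKM in the control and 227 to 665 in the treated libraries. Fibroblast markers (6 genes) ranged from 6.66 in the control to 152 in PhIP/DSS day 1, and endothelial markers (4 genes) from 1.68 to 4.18. Epithelial markers (10 genes) summed to 17989 RPKM in the control and 19703 to 28179 in the treated libraries. The part of each of these cell types in the levels of the 10 genes was not tested.

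**Figure D4:**
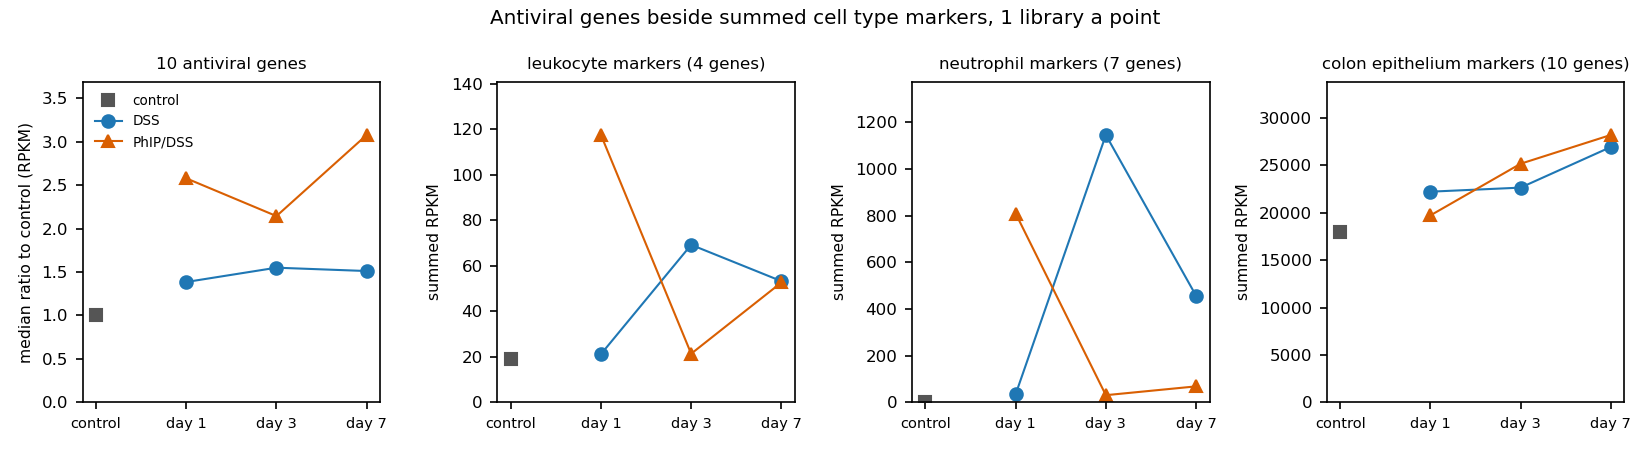
Median ratio to the control of the 10 antiviral genes, and summed RPKM of leukocyte, neutrophil and colon epithelium markers (linear axes from 0), by library, with the control in grey, DSS in blue and PhIP/DSS in orange. The antiviral genes are at 2.14 in PhIP/DSS day 3 against 1.55 in DSS day 3, where neutrophil markers sum to 31.0 against 1146 RPKM. Lymphocyte markers are not drawn. On that day T and NK cell markers sum to 7.68 against 6.62 RPKM and B and plasma cell markers to 25.08 against 25.05. Both sums are higher in PhIP/DSS on the other days too. A median ratio and a sum of RPKM are unlike measures, and the part of each cell type was not tested.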

How the data were processed

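Per the file headers, the deposited tables give the count of uniquely mapped reads, the gene length, the percent of that length covered and the RPKM per gene. The deposited RPKM equalled reads divided by length and library total (largest relative deviation 7.84e-14). The submitters' processing notes name mm10 and FastQC. No source used here gives the aligner, counter, annotation or strand setting. The names of the tables carry other day codes than the labels, and the labels were used. Missing genes were entered as 0 reads. Gene IDs were matched to a RefSeq table of GRCm38.p6 (17983 of 18036 matched).

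Counts were fitted in edgeR 4.0.16 (R 4.3.3, TMM, quasi-likelihood, Benjamini-Hochberg over 12061 genes) with levels for the control and each day plus 1 PhIP term. The fit was tried on simulated data with a smaller spread than that fitted here. Only the recovery of known fold changes was required there, so the trial is no check of the p-values. The p-values rest only on how far the arm difference departs from a constant over the days, not on a spread between replicate libraries. Ratios of 2 libraries carry exact 95% (Clopper-Pearson) intervals for counting error. DESeq2 1.42.0 and limma 3.58.1 were alternatives. The genes and lists were chosen with earlier results of these data known. Named besides the 10 were 17 interferon genes set by name (1 is not reported here), the 3 genes of each list with the largest difference from the control and the 10 most similar profiles. Ifit1bl1 and Herc6 were added after their values were seen.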

Additional observations from a re-analysis of the deposited data

Results flagged for a closer look

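Some of the named genes of the interferon pathway outside the 10 differed between the arms in opposite directions on different days. The share of all genes that did so was not counted. PhIP/DSS was above DSS on day 1 and below it on day 3 for Cxcl10, a chemokine gene (ratios 7.26 and 0.317), Cxcl9 (3.78 and 0.502), Ifnar2, a type I interferon receptor chain (4.14 and 0.399), and Ifitm1 (4.85 and 0.0910, with 0.478 on day 7). Socs3 was above on day 1 (5.38) and below on day 7 (0.495). Each ratio compares 1 library with 1 library, and the difference between days was not tested. General leukocyte markers summed to 118 RPKM in PhIP/DSS day 1 against 21.2 in DSS, and to 21.4 against 69.3 on day 3, and their part in these ratios was not tested. None of the 10 antiviral genes changed direction between days. Nor did many other pathway genes. PhIP/DSS was above DSS on each day for 7 of 15 signalling genes, 6 of 13 sensor and adaptor genes and 21 of 40 other effectors. The same held for 6 of 9 genes induced mainly by interferon gamma and 1 of 6 ligand and receptor genes, beside 14.6% of all genes.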

How the results depend on the processing

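Of 850 single-gene values under the other fits, 771 kept their direction and their side of the threshold. Main counts of called members were 0 throughout. DESeq2 gave 3 over all treated days, 1 on day 1, 1 on day 3 and 3 on day 7 (6.95%, 10.3%, 3.63% and 3.81% of all genes). The fit with no low-value filter gave 1 over all treated days and 1 on day 7 (0.277% and 0.161% of all genes). For limma on log2(RPKM + 0.1) these were also 1 and 1 (0.547% and 0.348% of all genes). The cause was not tested. Leaving out 1 treated library gave 0 to 7 members over all treated days, 0 to 5 on day 1, 0 to 6 on day 3, 0 to 8 on day 7, 0 to 2 for day 7 against day 1 and 0 to 3 for PhIP/DSS against DSS. A 2-fold rule left 1 and 2 genes on days 3 and 7 between the arms, and 1, 1 and 3 in DSS days 1, 3 and 7 against the control. The share of all genes past 2-fold was not counted, so these numbers have no background beside them. The Ifit3 log2 fold change, day 7 against day 1, was 0.01 in the reported fit and turned to -0.0212 with library totals alone and to -0.0164 and -0.0247 with limma at pseudocounts of 1 and 0.1, and ran from -0.114 to 0.127 with 1 treated library left out. In the same comparison Mx2 ran from -0.0803 to 0.614 and Rsad2 from -0.259 to 0.568 with 1 library left out, and Rsad2 on day 3 against the control from -0.277 to 0.389. Few reads limit Mx2 and Ifit3. The reported fit pairs the arms by day, and with no day term 0 members were called too.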
